A study of Zea mays with 48 samples.

Results

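The genes pht1 and pht7 of maize (Zea mays) were followed in the pulvinus, the joint-like tissue at the base of a leaf sheath that bends a tipped grass stem back upright. Every probe set that the array's gene annotation lists under the symbol pht1 or pht7 was taken, which gave 2 probe sets for 2 genes, out of 17545 probe sets on the array. A gene symbol is listed for 1452 of these probe sets, which cover 1108 genes. Both members passed a filter on dim probe sets that kept 10527 for testing. The genes had been picked because earlier results of the same arrays placed them higher in reoriented than in vertical plants, so that difference is given here as a description and carries no test.

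The study asked which messages change in amount, and which in their association with ribosomes, after plants are laid on their side. All plants were strain B73, about 6 weeks old and greenhouse-grown, and the pulvini of 6 plants were pooled at each time point. Reoriented plants were tipped by 90 degrees and the lower, faster growing and the upper, slower growing sides of the pulvinus were collected after 2, 5, 15, 30 and 60 min. Vertical control plants gave a right and a left side, with no time label. Each frozen powder was divided for polysomal RNA, taken from isolated ribosome clusters, and for total RNA, and the whole experiment was done in 2 growing seasons. The labels number the repetitions 1 and 2 and name no season. A difference between repetitions is one between seasons and plantings at once. Whether the arrays of the repetitions were also run apart is not given by the labels. This gives 48 arrays in 24 groups of 2, and 12 plant pools for each kind of RNA. In tissue extracts of this kind, fewer cells of a type and less RNA per cell cannot be told apart.

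In maize the pht symbols were given to genes of the PHT1 family of phosphate transporters. These are plasma membrane proteins that carry inorganic phosphate into the cell together with protons, so their activity depends on the proton gradient that plasma membrane proton pumps maintain. The family is best known for phosphate uptake at the root surface, and in Arabidopsis and rice several of its genes are switched on by phosphate starvation through PHR transcription factors. Some members also work in shoots, where phosphate is moved between tissues and released from ageing leaves. What pht1 and pht7 do in the pulvinus is not given by the labels.

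The identity of the probe sets was examined first, since members of such a family are alike in sequence. The probe set Zm.7659.1.S1_at carries pht1 (Entrez gene 542180, also GRMZM2G326707 and PT1), and Zm.1921.1.S1_at carries pht7 (Entrez gene 732717, also GRMZM2G112377). Each is the only probe set listed for its gene and for its source sequence, and the genes lie on different chromosomes of the RefSeq assembly Zm-B73-REFERENCE-NAM-5.0, with 1 RefSeq transcript each. Neither name has the suffix _s_at or _x_at, by which the array's maker marks probe sets that may match several transcripts and which 311 and 626 probe sets of the array carry. The assembly's gene table holds 10 genes with a pht symbol, and only pht1 and pht7 have a probe set listed by name, so the others are not analysed here. Probe sequences were not used here, and whether either probe set also binds messages of another pht gene was not tested.

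The array signals are the authors' linear intensities. The mean signal without the 2% of probe sets at either end was 495.8 to 499.1 on every array, and 15.0% to 22.4% of the probe sets of an array lay below 16. Green shoot genes had array medians of 328 to 1068 and kernel genes of 2.4 to 15.4, so the arrays show green tissue and little of the kernel. No marker of the pulvinus itself was in the lists. One array was treated as standing apart. The polysomal upper side at 5 min of repetition 1 correlated at 0.903 with the lower side of the same plants, while the sides of the 23 other pools correlated at 0.973 to 0.992. This upper side correlated at 0.981 with both polysomal arrays at 5 min of repetition 2. The like correlations of the lower side are not given here, so these values alone do not settle which array of the pair is the odd one. The upper side is called the array that stood apart below. Where this array enters a result of pht1 or pht7 at 5 min, the value without it is given too. Those fits were added after the array was seen.

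The pht1 signal was in the middle of the array's range, above 38.3% to 72.4% of the probe sets. In polysomal RNA of repetition 2, pht1 gave 95.0 in the right and 126.8 in the left side of vertical plants. The lower side of reoriented plants then gave 201.6, 320.7, 249.6, 317.4 and 377.6 in the order 2, 5, 15, 30 and 60 min, and the upper side gave 212.1, 209.0, 288.2, 330.9 and 323.4. All 10 reoriented arrays were above both vertical arrays, and the lowest of the 10 was at 2 min. In repetition 1 the vertical sides gave 361.4 on the right and 217.4 on the left. The reoriented lower side gave 420.6, 418.8, 442.8, 602.6 and 382.2 at 2, 5, 15, 30 and 60 min, and the upper side 421.4, 289.0, 554.5, 531.1 and 522.6. Here 9 of the 10 reoriented arrays were above both vertical arrays, and the exception was the upper side at 5 min, the array that stood apart.

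The total RNA of the same powders gave a like picture for pht1. In repetition 2 the vertical sides gave 81.0 on the right and 122.4 on the left, the reoriented lower side gave 184.8, 168.5, 380.5, 232.2 and 309.9 at 2, 5, 15, 30 and 60 min, and the upper side 150.8, 206.0, 280.9, 352.5 and 410.5. In repetition 1 the vertical sides gave 333.1 on the right and 187.3 on the left, the reoriented lower side 376.6, 355.1, 280.1, 413.6 and 419.0, and the upper side 351.4, 437.2, 341.9, 533.7 and 478.0. All 10 reoriented arrays of repetition 2 and 9 of the 10 of repetition 1 were above both vertical arrays of their repetition, and the exception in repetition 1 was the lower side at 15 min.

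The pht7 signal was dimmer relative to its arrays, above 20.4% to 62.3% of the probe sets. In polysomal RNA of repetition 2 the vertical sides gave 24.1 on the right and 36.9 on the left, the reoriented lower side gave 76.0, 80.9, 170.3, 71.5 and 67.1 at 2, 5, 15, 30 and 60 min, and the upper side 30.9, 69.9, 179.5, 85.1 and 65.0. In repetition 1 the vertical sides gave 156.6 on the right and 132.6 on the left, the reoriented lower side 168.4, 306.3, 361.4, 376.1 and 249.8, and the upper side 162.5, 78.1, 248.3, 367.4 and 286.9. In each repetition 9 of the 10 reoriented arrays were above both vertical arrays, the exceptions being the upper side at 2 min of repetition 2 and the array at 5 min of repetition 1 that stood apart. At 15 min both sides of repetition 2 were far above every other polysomal array of that repetition.

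In total RNA pht7 gave 17.1 on the right and 20.5 on the left of vertical plants in repetition 2, then 48.6, 49.4, 110.0, 49.6 and 69.5 in the lower side of reoriented plants at 2, 5, 15, 30 and 60 min and 24.4, 59.1, 147.5, 50.8 and 49.8 in the upper side. In repetition 1 it gave 119.3 on the right and 134.5 on the left of vertical plants, then 140.0, 246.5, 240.0, 228.8 and 222.1 in the reoriented lower side and 202.9, 213.4, 188.3, 197.0 and 207.7 in the upper side. All 10 reoriented arrays were above both vertical arrays in each repetition. Of the 10527 probe sets tested, 0.408% met this in both repetitions in total RNA and 0.456% in polysomal RNA. Only pht7 in total RNA met it. In polysomal RNA neither gene did, nor did pht1 in total RNA, and no share was computed for 9 of 10 arrays. Since the genes were picked by this contrast, nothing is read from any of these counts.

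**Figure D1:**
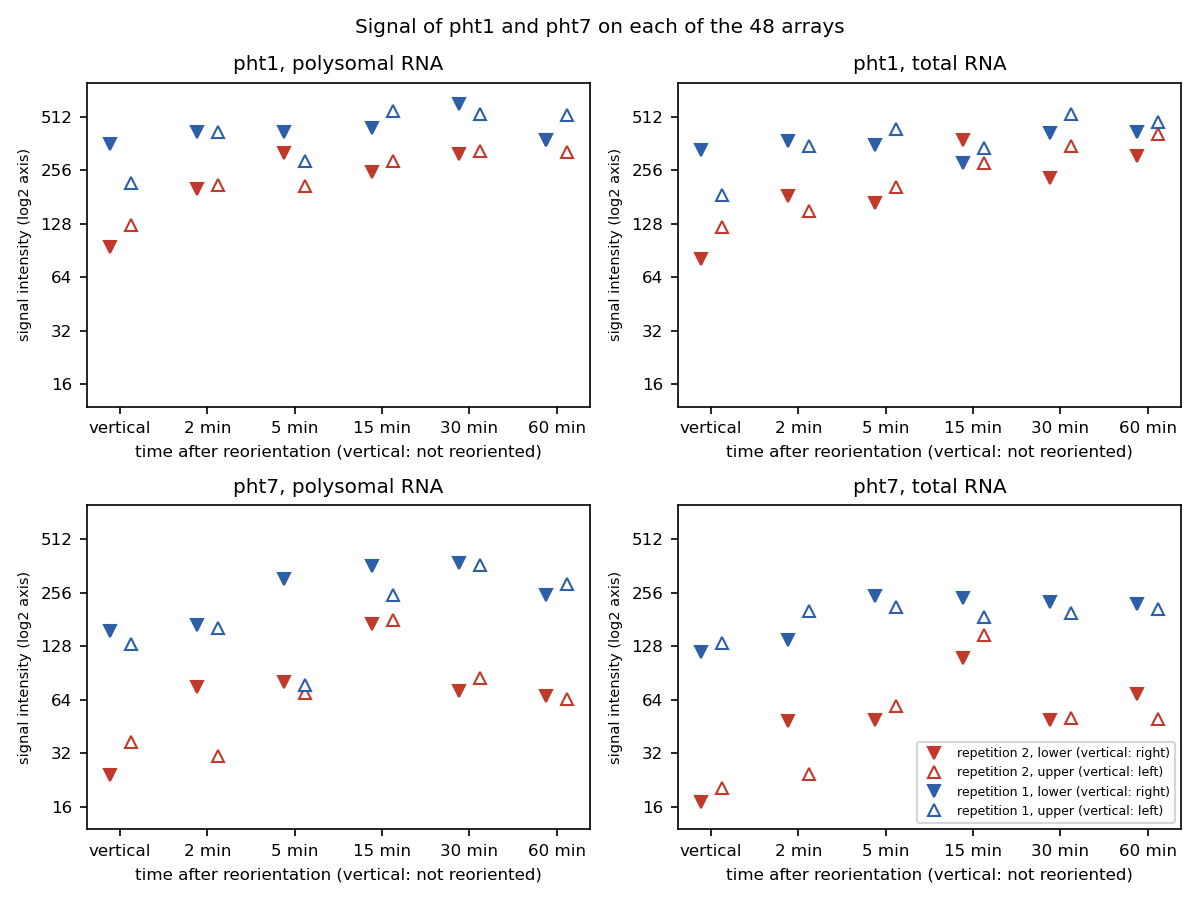
Signal intensity (linear values on a log axis) of pht1 and pht7 on each array, by time after reorientation with vertical plants at the left of each panel. Colours separate the repetitions and markers the sides of the pulvinus; at 60 min the lower-side markers of pht1 in polysomal RNA coincide, at 377.6 in repetition 2 and 382.2 in repetition 1. Vertical arrays of pht7 in repetition 2 lie at 17.1 to 36.9, and its reoriented arrays of that repetition peak at 15 min.

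Relative to vertical plants of the same repetition, pht1 and pht7 were higher in reoriented plants at every time in both kinds of RNA and both repetitions. Averaged over the 5 times and both sides, on log2(signal + 16), pht1 was higher by 0.93 ± 0.40 in polysomal RNA, a fold of 1.91, and by 0.92 ± 0.43 in total RNA, a fold of 1.89 (SD, n = 2 repetitions). The corresponding values for pht7 were 0.88 ± 0.29, a fold of 1.84, and 0.89 ± 0.35, a fold of 1.85. The constant of 16 lowers these values for a dim gene: with a constant of 1 they were 1.00 and 0.99 for pht1, and 1.06 and 1.15 for pht7. By the same adjusted p used below, 1.16% of the probe sets were higher in polysomal RNA and 0.418% in total RNA. The vertical plants carried no time label, so no time-matched comparison could be made. Within a repetition all times were set against the same vertical pool, and both kinds of RNA came from the same powders. The like signs over times and kinds of RNA are therefore not independent.

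Averaged over the repetitions, the genes differed in when the difference was widest. For pht1 the polysomal difference was 0.69, 0.71, 0.98, 1.20 and 1.09 at 2, 5, 15, 30 and 60 min, and the total RNA difference 0.59, 0.71, 0.93, 1.13 and 1.24. For pht7 the polysomal difference was 0.35, 0.55, 1.52, 1.15 and 0.83, and the total RNA difference 0.46, 0.90, 1.36, 0.80 and 0.90. Without the array that stood apart, the polysomal differences at 5 min were 0.84 for pht1 and 1.00 for pht7, and their averages over the 5 times 0.96 and 0.97. In these values the lower side alone stands for repetition 1 at 5 min, while all other pools average both sides. The peak of pht7 at 15 min was that of repetition 2, at 2.05 in polysomal RNA and 2.05 in total RNA. Repetition 1 gave 0.98 and 0.68 at that time and had no peak there. In repetition 1 pht7 was widest at 30 min in polysomal RNA, at 1.28, and at 5 min in total RNA, at 0.78. In that repetition pht1 was widest at 30 min in both, at 0.97 in polysomal and 0.87 in total RNA. For pht1 at 60 min, repetition 2 gave 1.54 in polysomal and 1.69 in total RNA, against 0.64 and 0.80 in repetition 1. At 15 min in total RNA pht1 gave 1.57 in repetition 2 against 0.29 in repetition 1.

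**Figure D2:**
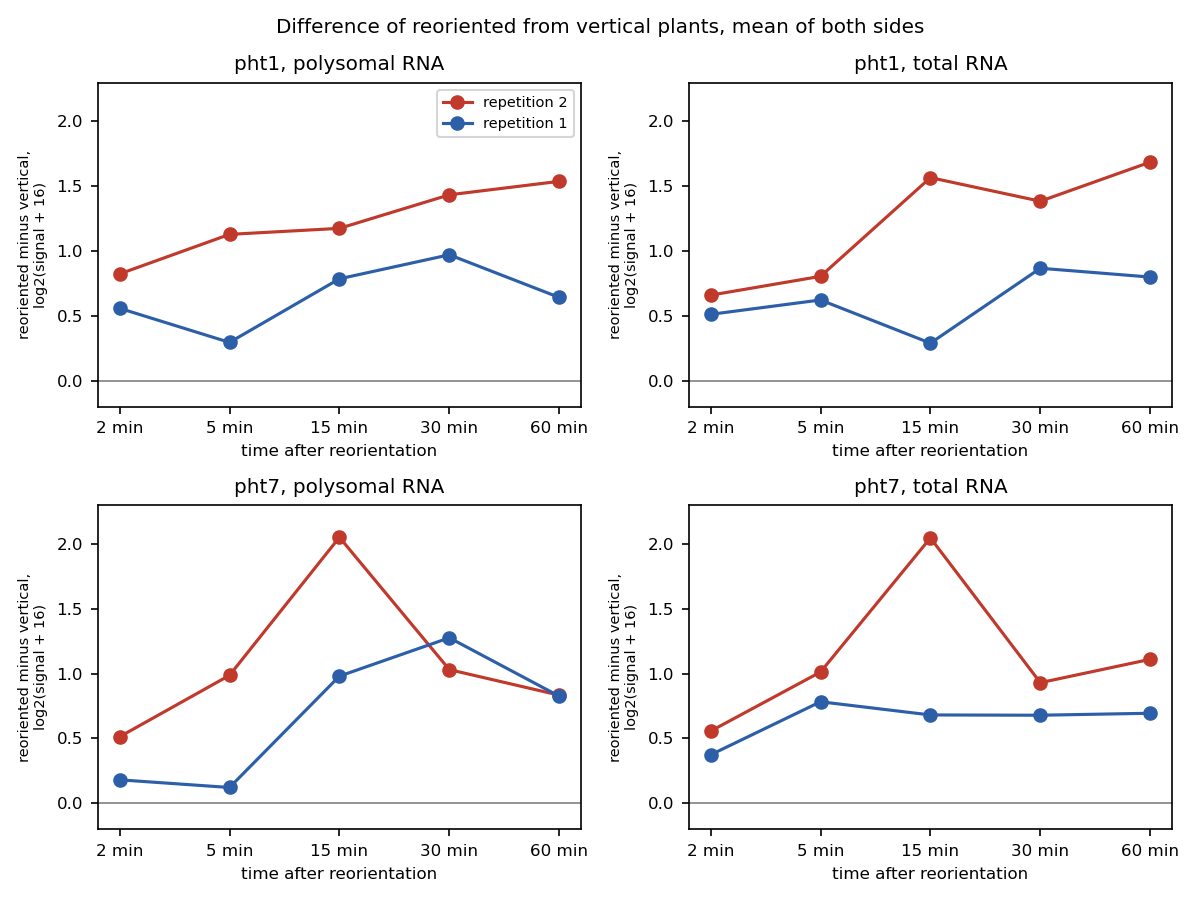
Log2 difference of reoriented minus vertical plants for pht1 and pht7 by time after reorientation, with both sides averaged. Points are plant pools, and a line joins those of a repetition; all values lie above 0, and pht7 reaches 2.05 at 15 min in repetition 2.

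Ordered by mean log2 level, vertical plants were lowest for both genes in both kinds of RNA, and 2 min came next in each. For pht1 the order in polysomal RNA went on to 5, 15, 60 and 30 min, with levels running from 7.59 in vertical plants to 8.80 at 30 min. In total RNA it went on to 5, 15, 30 and 60 min, with levels running from 7.46 to 8.70. The residual SD of a pool mean was 0.24 and 0.35 in these fits. Vertical plants are given for their place in the order alone, since the genes were picked on them. Among the reoriented times the step between 5 and 15 min of pht1 in polysomal RNA, at 0.27, exceeded this SD, and the other neighbours in the order did not differ beyond it. For pht7 the polysomal order was vertical, 2, 5, 60, 30 and 15 min, running from 6.42 to 7.94, and no neighbours among the reoriented times differed beyond the SD of 0.37. Its total RNA order was vertical, 2, 30, 5, 60 and 15 min, running from 6.14 to 7.50, and against an SD of 0.35 only the step of 0.46 between 60 and 15 min was larger. Without the array that stood apart the polysomal level at 5 min was 8.43 for pht1, and the limma step of 15 minus 5 min was 0.22, within the SD. For pht7 the polysomal level at 5 min so taken was 7.42, which put 5 min above 60 min in the order. The times 2 and 60 min then became neighbours and stood further apart than the SD.

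Differences among the 5 reoriented times do not involve the vertical arrays and were tested. Neither gene passed in limma's moderated F test over the times, with adjusted p of 0.466 in polysomal and 0.629 in total RNA for pht1, and of 0.224 and 0.514 for pht7, where 5.86% of all probe sets passed in polysomal RNA and 3.73% in total RNA. The largest of the single steps was that of pht7 between 5 and 15 min in polysomal RNA, at 0.96 (SE 0.37, limma adjusted p = 0.175, with 4.34% of probe sets passing). This pht7 result depends on which array stands for the upper side at 5 min. Without that of repetition 1, which stood apart, the step was 0.58 with a limma adjusted p of 0.388, and the F test over times gave an adjusted p of 0.117. Without that of repetition 2, which leaves the upper side at 5 min to the array that stood apart, the step was 1.34 with a limma adjusted p of 0.0119, and the F test gave 0.0282. The 5 to 15 min steps of pht7 in total RNA, at 0.47, and of pht1, at 0.27 in polysomal and 0.21 in total RNA, did not pass (limma adjusted p of 0.714, 0.631 and 0.893, with 2.07% of probe sets passing in total RNA). Between 15 and 60 min pht1 stood 0.11 higher in polysomal and 0.31 higher in total RNA, and pht7 stood at -0.69 and -0.46. None of these passed (limma adjusted p of 0.926, 0.774, 0.539 and 0.643, with backgrounds of 2.21% and 1.72%).

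The lower and upper sides of the pulvinus, which grow at different speeds as the stem bends, did not differ in either gene beyond the spread between pools. Over the 5 times the lower minus upper difference of pht1 was 0.04 in polysomal RNA (SE 0.10, 95% interval -0.17 to 0.25) and -0.15 in total RNA (SE 0.11, interval -0.39 to 0.08), and 4 and 3 of the 10 pools were positive. For pht7 it was 0.31 in polysomal RNA (SE 0.15, interval -0.02 to 0.64) and 0.08 in total RNA (SE 0.11, interval -0.16 to 0.32), with 7 and 6 of 10 pools positive. The limma adjusted p values were 0.932 and 0.871 for pht1 and 0.557 and 0.954 for pht7, and of all probe sets 0% passed, while 979 in polysomal and 697 in total RNA had an unadjusted p under 0.05. The polysomal pht7 value of 0.31 moved with the arrays of the upper side at 5 min. It was 0.16 (limma adjusted p = 0.891) without the array of repetition 1 that stood apart, and 0.46 (limma adjusted p = 0.0529) without that of repetition 2, and the share of all probe sets passing was 0% and 5.02% (528 probe sets). A difference in the sides that varied over the times was not called either, with limma F adjusted p of 0.698 and 0.826 for pht1 and of 0.551 and 0.988 for pht7, against backgrounds of 1.22% in polysomal and 0.104% in total RNA. The polysomal background of 128 probe sets was 4 without the array that stood apart and 0 without the lower side of the same pool. It was 747 without the upper side at 5 min of repetition 2 and 25 without the lower side there, and pht7 had a limma adjusted p of 0.0545 at its closest, without that upper side.

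At 5 min the sides stood further apart in polysomal RNA. The pht1 difference was 0.58 in repetition 2 and 0.51 in repetition 1, a mean of 0.55 (SE 0.22, limma adjusted p = 0.117). That of pht7 was 0.17 in repetition 2 and 1.78 in repetition 1, a mean of 0.97 (SE 0.35, limma adjusted p = 0.0763). In the same contrast 12% of all probe sets passed, and it includes the array that stood apart, which holds the upper side of repetition 1. Without that array the differences were 0.45 for pht1 (SE 0.30, limma adjusted p = 0.542) and 0.22 for pht7 (SE 0.35, limma adjusted p = 0.831), and 0.722% of all probe sets passed. Without the upper side of repetition 2 they were 0.64 (limma adjusted p = 0.124) and 1.73 (limma adjusted p = 0.00277), so pht7 passed where the outlying array alone stood for the upper side, as did 27.5% of all probe sets. In total RNA of the same powders pht1 stood at -0.27 in repetition 2 and -0.29 in repetition 1, below 0 where the polysomal values were above 0. The difference between the kinds of RNA in this contrast was 0.82 for pht1 (SE 0.28, interval 0.23 to 1.42) and 0.98 for pht7 (SE 0.28), with limma adjusted p of 0.174 and 0.139. At none of the 5 times did a probe set pass in that comparison, and 1841 had an unadjusted p under 0.05 at 5 min. Without the powder of the array that stood apart the values were 0.55 for pht1 and 0.29 for pht7 (limma adjusted p = 0.956 for each). Without the upper powder of repetition 2 they were 1.10 and 1.67, and both passed (limma adjusted p of 0.0309 and 7.40e-05), as did 21.6% of all probe sets. At the other times neither gene passed in polysomal RNA, where 0% to 0.0095% of the probe sets did. In total RNA neither passed at any time, against 0.038% of the probe sets at 15 min and 0.266% at 60 min.

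In vertical plants, where neither side is lower, the right minus left difference of pht1 was -0.36 in repetition 2 and 0.69 in repetition 1 in polysomal RNA, and -0.51 and 0.78 in total RNA. These values have opposite signs in the repetitions and are of the size seen between lower and upper sides. For pht7 they were -0.40 and 0.22 in polysomal RNA, and -0.14 and -0.15 in total RNA.

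**Figure D3:**
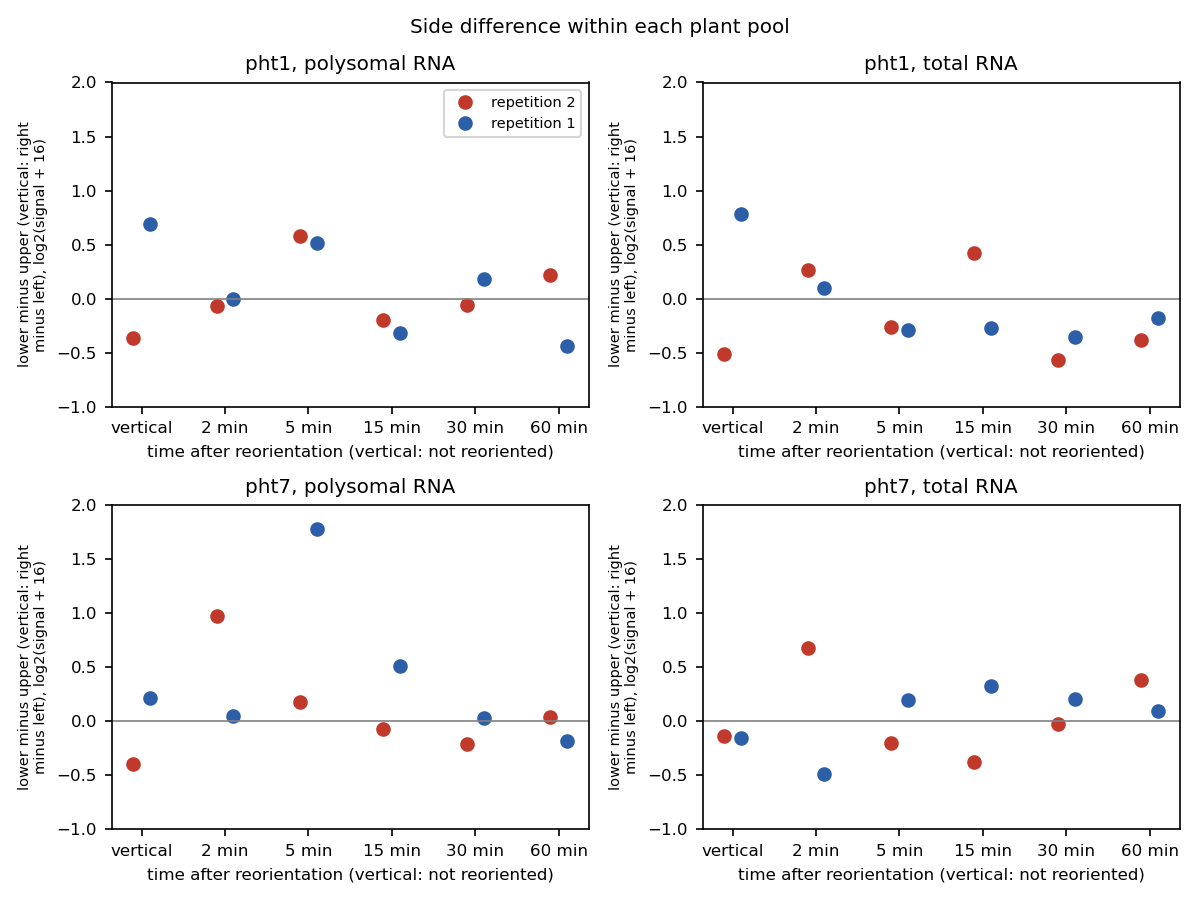
Log2 difference of the lower minus the upper side (right minus left in vertical plants) for pht1 and pht7, by time and repetition. Points fall on both sides of 0 in every panel. In total RNA both pht1 points lie above 0 at 2 min and below it at 5, 30 and 60 min. The highest point, 1.78 for pht7 in polysomal RNA at 5 min, includes the array that stood apart.

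Polysomal and total RNA came from the same powder, so the log2 difference between them was taken within each powder as a measure of how strongly a message is represented on ribosomes relative to the other messages of the array. For pht7 it was 0.28 (SE 0.07, interval 0.13 to 0.43), with 17 of 20 reoriented and 3 of 4 vertical powders above 0 and a limma adjusted p of 0.0019. For pht1 it was 0.15 (SE 0.07, interval 0.0028 to 0.30), with 14 of 20 reoriented and 4 of 4 vertical powders above 0, and it did not pass, with a limma adjusted p of 0.0658. Of all probe sets 68.5% passed in one direction or the other, so a call is common in this comparison. The pht1 value lay close to the threshold: it passed, at 0.17 to 0.20 with adjusted p of 0.00815 to 0.0451, when any 1 of 5 powders was left out. These were both sides at 5 min and the lower side at 60 min of repetition 1, and the upper side at 60 min and the lower side at 15 min of repetition 2.

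Within the time course the pht7 difference averaged 0.64 at 30 min, between 0.42 and 0.85 in the 4 powders, and 0.44 at 15 min, where all 4 powders were above 0 too. At 5 min it averaged -0.06, and the powder of the array that stood apart gave -1.29, with a pht7 signal of 78.1 in polysomal and 213.4 in total RNA. The other 3 powders at 5 min averaged 0.35 for pht7, between 0.19 and 0.57, and 0.37 for pht1. Without that powder the pht7 difference over all conditions was 0.34 (limma adjusted p = 6.12e-06). For pht1 the averages lay between -0.02 at 60 min and 0.24 at 2 min. Reorientation did not shift this measure detectably. The difference of reoriented minus vertical powders was 0.02 for pht1 (interval -0.38 to 0.41) and -0.01 for pht7 (interval -0.40 to 0.39), with 0% of all probe sets passing in limma and 288 at an unadjusted p under 0.05. The intervals leave room for a shift of up to about 0.4 either way.

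**Figure D4:**
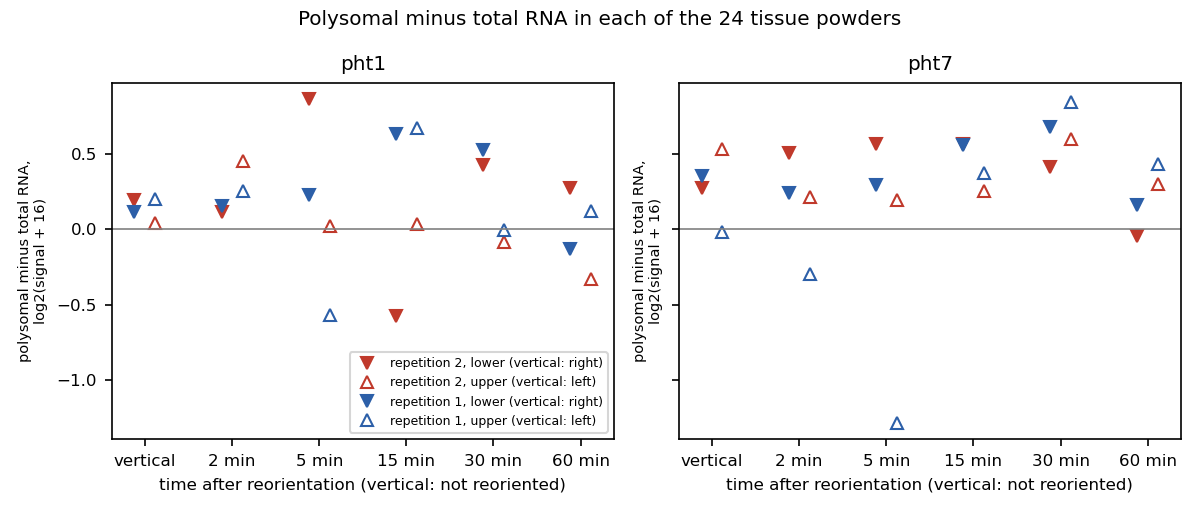
Log2 difference of polysomal minus total RNA in each powder for pht1 and pht7 (24 powders), by time, with markers for side and repetition. At 15 min the pht7 markers of the lower sides coincide. The pht7 powders at 15 and 30 min all lie above 0, and its lowest point, -1.29 at 5 min, is the powder of the array that stood apart.

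The repetitions differed in both genes and in both kinds of RNA. The p-values of this difference measure how alike it was over the conditions, not how seasons vary. In repetition 2 pht7 was lower by a log2 difference of -1.46 in polysomal RNA, a fold of 0.364 (SE 0.21, interval -1.91 to -1.01, limma adjusted p = 8.08e-05), and of -1.63 in total RNA, a fold of 0.323 (SE 0.20, interval -2.05 to -1.21, limma adjusted p = 1.12e-05). For pht1 the difference was -0.76 in polysomal RNA, a fold of 0.589 (SE 0.14, interval -1.05 to -0.47, limma adjusted p = 0.000407), and -0.70 in total RNA, a fold of 0.616 (SE 0.20, interval -1.11 to -0.29, limma adjusted p = 0.00888). The repetitions differed in many genes: 46.6% of the probe sets passed in polysomal and 43.3% in total RNA, and 25.1% and 25.5% passed as lower in repetition 2. Every one of the 6 conditions had lower pht7 in repetition 2 in both kinds of RNA, by -2.04 to -0.73 in polysomal and by -2.04 to -0.67 in total RNA. For pht1 all 6 were lower in polysomal RNA, by -1.24 to -0.34, and 5 of 6 in total RNA, where the difference at 15 min was 0.08 and the lowest was -1.20. Without the array that stood apart the polysomal difference at 5 min was -1.82 for pht7 and -0.66 for pht1. These values set the mean of both sides in repetition 2 against the lower side alone in repetition 1.

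**Figure D5:**
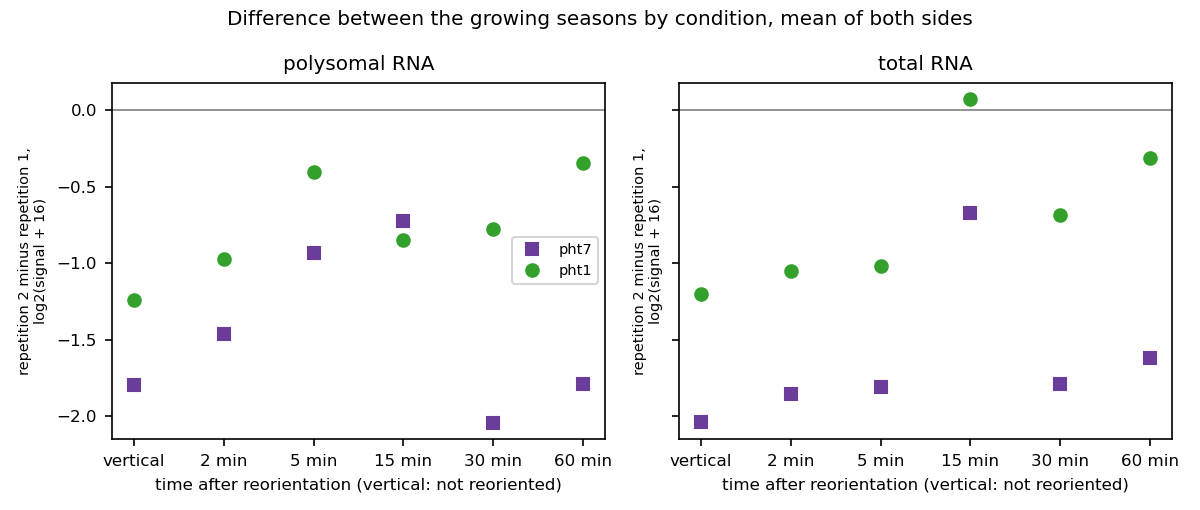
Log2 difference of repetition 2 minus repetition 1 for pht1 and pht7 in each condition, with both sides averaged. Points lie below 0 in all conditions except pht1 at 15 min in total RNA, and those of pht7 reach -2.04.

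The sizes of the repetition difference in pht7 and in pht1 were compared by taking pht7 minus pht1 in every pool pair, a comparison added after the values were seen. The difference was -0.70 ± 0.57 in polysomal RNA, with 5 of 6 pairs below 0, and -0.93 ± 0.22 in total RNA, with 6 of 6 below 0 (SD, n = 6 pool pairs). Exact 2-sided sign flips gave p = 0.0625 in polysomal RNA and p = 0.0312 in total RNA, the smallest that 6 pairs allow, and both stood at 0.0625 after Benjamini-Hochberg adjustment over the 2 tests. The values rest on the same arrays as the differences above. All 6 pairs compare the same 2 repetitions, so these p-values do not measure the spread between seasons either. The response to reorientation was nominally wider in repetition 2 for both genes, averaging 1.22 in repetition 2 against 0.65 in repetition 1 for pht1 in polysomal RNA, and 1.08 against 0.68 for pht7. In total RNA the pair of values was 1.22 and 0.62 for pht1 and 1.13 and 0.64 for pht7. The test of repetition 2 minus repetition 1 in this response gave 0.57 and 0.60 for pht1, and 0.41 and 0.49 for pht7, in polysomal and in total RNA. None passed in limma (adjusted p of 0.585, 0.725, 0.837 and 0.793, with backgrounds of 0.266% and 0.0095%).

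The signals of pht1 and pht7 moved together to a moderate degree. After each kind of RNA and each repetition was centred on its own mean, their correlation over the 48 arrays was 0.656, and it was 0.661 over the 24 polysomal and 0.670 over the 24 total RNA arrays. Without the array that stood apart it was 0.650 over 47 and 0.640 over 23 polysomal arrays. These arrays share pools and powders, and all carry the difference between vertical and reoriented plants by which the genes were picked. Of the 10526 other probe sets tested, pht7 stood at rank 47 by correlation with pht1, and pht1 at rank 150 by correlation with pht7.

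Other named genes followed them more closely. For pht1 the highest were LOC541871 (HMG I/Y-2, a chromatin-associated protein) at 0.771, LOC542052 (mha4, a plasma membrane proton pump) at 0.758, LOC542202 (SAG) at 0.718, MPK4, a MAP kinase, at 0.664 and MNB1a, a Dof transcription factor, at 0.656. Between 1 and 40 probe sets with no listed gene had a higher correlation than these. For pht7 the highest were LOC542202 (SAG) at 0.743, LOC542224 (CDPK1, a calcium-dependent protein kinase) at 0.707, LOC732777 at 0.704, LOC542227 at 0.700 and LOC732831 (UGlcAE) at 0.672, with 17 to 110 unlisted probe sets higher. SAG was in both groups. Of the 5 for pht1, 2 were again among the 5 highest in polysomal RNA alone and 3 in total RNA alone, and of the 5 for pht7, 4 and 2.

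Genes of related processes were then set beside the pair. A search for other phosphate homeostasis genes by symbol found no probe set with a listed name other than those of pht1 and pht7. The plasma membrane and vacuolar proton pumps, which build proton gradients across these membranes, had 6 probe sets of which 4 were past the filter. None of the 4 was called between reoriented and vertical plants, where 1.44% of all probe sets were called in polysomal and 0.427% in total RNA. With shares this small, no call among 4 probe sets says little about the pumps. In polysomal RNA mha4 stood at 0.31 (SE 0.11, limma adjusted p = 0.204), and mha1 (LOC542303) at -0.33 (SE 0.31, limma adjusted p = 0.697). Between repetitions 46.6% of all probe sets were called in polysomal and 43.3% in total RNA. Of the 10527 tested, 2262 and 1877 were called higher in repetition 2. Of the pumps 3 of 4 rose in polysomal RNA in repetition 2, mha1 by 1.43 (SE 0.23, limma adjusted p = 0.000175). In total RNA 1 of 4 rose, the vacuolar pyrophosphatase vpp1 (LOC542328) by 0.95 (SE 0.08, limma adjusted p = 5.88e-07). The values of mha4 were -0.14 and -0.10 and did not pass. Between polysomal and total RNA, where 68.5% of all probe sets were called, mha4 was higher by 0.48 (SE 0.05, limma adjusted p = 1.38e-07), and mha1 fell by 1.07 (SE 0.10, limma adjusted p = 6.89e-08). The median of the 4 between repetitions was 0.62 in polysomal RNA, against -0.02 over all probe sets tested. In total RNA that median was 0.03, against -0.04, and 2 of the 4 were above 0.

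Transporters of other mineral nutrients had 8 probe sets and none passed the filter, with array medians of 4.15 to 30.3. The genes of inositol phosphate and phospholipid metabolism, which store and signal through phosphate, had 6 of 7 probe sets past the filter. None of the 6 was called between reoriented and vertical plants in either kind of RNA. Of all probe sets only 1.44% were called there in polysomal and 0.427% in total RNA. Between repetitions 3 of 6 were called in each kind of RNA, 1 higher and 2 lower in repetition 2, close to the 46.6% and 43.3% of all probe sets. The inositol kinase gene lpa3 (LOC606457) stood lowest in polysomal RNA, at -0.40 (SE 0.10, limma adjusted p = 0.00368), and the transporter gene lpa1 (LOC100125659) highest, at 0.32 (SE 0.09, limma adjusted p = 0.00644). All 6 were called on polysomes, 5 higher and 1 lower, with lpa1 at 0.90 (SE 0.05, limma adjusted p = 3.75e-10), where 68.5% of all probe sets were called.

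The early stress transcription factors and calcium-dependent kinases had 9 of 12 probe sets past the filter. Between reoriented and vertical plants 2 of 9 rose in polysomal RNA, where 1.44% of all probe sets were called in either direction, and 1 of 9 in total RNA, where 0.427% were. The largest was dbf1 (LOC542569), a DRE-binding factor, at 1.24 (SE 0.20, limma adjusted p = 0.00488) in polysomal and 1.11 (SE 0.13, limma adjusted p = 0.00144) in total RNA. This list was chosen with earlier results of the same arrays known, so nothing is read from its counts or p-values. Among the reoriented times 4 of 9 were called in polysomal and 3 of 9 in total RNA by limma's F test, against 5.86% and 3.73% of all probe sets. Between repetitions 2 of 9 fell in polysomal and 5 of 9 in total RNA in repetition 2, where 25.1% and 25.5% of all probe sets did, with a median of -0.15 and -0.28, against -0.02 and -0.04 over all probe sets.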

How the data were processed

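The authors deposited linear signal intensity per probe set of the Affymetrix Maize Genome Array, made with GCOS per the submitters' processing notes. No version, scaling target or detection call is given in the sources used here. Intensities were taken as log2(signal + 16), and probe sets were kept where their mean was at or above the 40th percentile. Each kind of RNA (24 arrays), and the polysomal minus total differences of the powders, were fitted with limma 3.58.1 and statmod 1.5.0 in R 4.3.3 (lmFit, eBayes with trend). Each fit had 1 mean per group, repetition as a fixed term and plant pool as a random block (duplicateCorrelation). P-values were adjusted by Benjamini-Hochberg over all probe sets tested, with a threshold of 0.05, and 11 residual degrees of freedom remained. Since repetition is a fixed term, p-values measure the spread left between pools and sides once the mean difference between repetitions is removed. Each repetition is 1 season, so p-values for a difference between repetitions do not measure the spread between seasons. The number of arrays limits the precision.

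Same-numbered arrays shared a season per the series' design text. Their deviations from the group means correlated at a median of 0.661 in polysomal RNA, with a lowest of -0.03, and of 0.621 in total RNA over 66 pairs of groups. The pool correlation was 0.380 in polysomal RNA, 0.575 in total RNA and 0.195 in the powder differences. The members, the lists of genes and the tests were chosen with earlier results of these data known. Lists were matched by symbol or synonym in the array's annotation and the RefSeq gene table, which held 1377 of the 1452 named probe sets. The 5 genes most alike were those with 1 listed symbol and the highest Pearson correlation over the 48 arrays, and list members named are those with the highest and lowest difference. The procedure was tested on simulated data. Other constants, no filter, quantile normalization, models without repetition or pool, and each array left out were the alternatives.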

Additional observations from a re-analysis of the deposited data

Results flagged for a closer look

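The lower minus upper difference of pht1 had opposite signs in both pools at 5 pairs of times, and these differences between times were not tested. In polysomal RNA it was 0.582 higher at 5 min than at 2 min, and -0.802 at 15 min relative to 5 min. At 2 min the polysomal pools stood close to 0, at -0.0026 in repetition 1 and -0.068 in repetition 2. Right minus left in vertical plants was 0.69 and -0.36 there, so the polysomal sign at 2 min carries little weight. In total RNA it stood at -0.459 at 5 min, -0.645 at 30 min and -0.467 at 60 min, each relative to 2 min. The pools of pht1 also had opposite signs in polysomal against total RNA. That difference was -0.217 at 2 min (SE 0.28, limma adjusted p = 1.00) and 0.824 at 5 min (SE 0.28, limma adjusted p = 0.174). The polysomal values at 5 min include the array that stood apart, and without its powder the difference of 0.824 was 0.55 (limma adjusted p = 0.956).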

How the results depend on the processing

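Among 214 recomputed values that leave out no array, 209 were counted as the same, with their direction and side of the threshold kept. Another 3 moved in size and 2 reversed their direction. The shift in polysomal minus total RNA with reorientation changed sign for pht7, to 0.051 with a constant of 64, and for pht1, to -0.076 with quantile normalization. Right minus left of pht7 in total RNA, a value with no test, kept its sign. It was -0.21 with a constant of 1, -0.087 with 64 and -0.17 with quantile normalization, against -0.15. Leaving out 1 array in turn (1 powder for polysomal minus total RNA) gave these ranges. Lower minus upper was -0.034 to 0.12 for pht1 in polysomal RNA and -0.028 to 0.18 for pht7 in total RNA. The difference of 15 minus 5 min was -0.012 to 0.44 for pht1 in total and 0.58 to 1.34 for pht7 in polysomal RNA, whose F test over times gave adjusted p of 0.0282 to 0.371. The difference of 60 minus 15 min was -0.077 to 0.30 for pht1 in polysomal RNA. Repetition 2 minus 1 in the response was -0.044 to 1.25 for pht1 in total RNA. Polysomal minus total was 0.10 to 0.20 for pht1, and its shift -0.039 to 0.071 for pht1 and -0.12 to 0.11 for pht7. The differences between repetitions passed in all of these, with adjusted p up to 0.0187 for pht1 in total RNA. Their size moved more for pht7. Over 30 settings it was -1.67 to -1.07 in polysomal and -1.94 to -1.12 in total RNA. For pht1 the ranges were -0.83 to -0.66 and -0.77 to -0.59. Without the replicate block the pht7 polysomal side difference was 0.31, and no member's call changed, nor did one without the pool. Numbers of probe sets called moved more. Without the replicate block the F test over times called 90 in polysomal and 31 in total RNA, against 617 and 393, and without the pool 1531 and 1806. The 15 minus 5 min count was 97 and 30 without the block and 954 and 573 without the pool, against 457 and 218. That of 60 minus 15 min was 54 and 26, and 465 and 683, against 233 and 181. The response difference between repetitions called 120 and 326 without the pool, against 28 and 1, and 2 in polysomal RNA with a constant of 64 or quantile normalization. The side F test called 30 and 2 without the block, 2 and 0 without the pool, and 42 and 0 with no filter, against 128 and 11. The cause of these changes was not tested.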
